A study of Homo sapiens with 9 samples.

Results

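The annexins are a family of calcium-dependent, phospholipid-binding proteins, and 10 of their genes are described here: ANXA1, ANXA2, ANXA3, ANXA4, ANXA5, ANXA6, ANXA7, ANXA8L1, ANXA10 and ANXA11. They were taken by gene symbol from tables of 20030 genes measured by RNA sequencing. The list was selected on expression values of these same libraries, with differences between the lines in view. Levels, fold changes and p-values are therefore given as a description of these genes, and nothing about the family as a whole is read from how many of them passed a test.

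The study compared MHCC97L, an established hepatocellular carcinoma (HCC) line, with 2 lines derived from it, to follow resistance to the Src kinase inhibitor saracatinib and to the platinum drug oxaliplatin. MHCC97L-Src had been grown in rising concentrations of saracatinib until it was stably resistant to 4 μmol/L. MHCC97L-Oxa was stably resistant to 2 μmol/L oxaliplatin, and MHCC97L received neither selection. Each line was sequenced in 3 libraries, 9 in all. The labels list saracatinib, oxaliplatin and none as the treatments of MHCC97L-Src, MHCC97L-Oxa and MHCC97L, and whether this means drug at harvest is not given in the sources used here. Each resistant line is a single derived line, so a difference between lines cannot be told apart from a difference between the particular cultures selected. The labels number the libraries without naming separate cultures. The study speaks of independent experiments for MHCC97L and MHCC97L-Src, and whether these were separate cultures is not given in the sources used here, so p-values measure the spread between these libraries, part of which may be technical.

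Annexins share a core that binds negatively charged membrane phospholipids when calcium rises, and each has its own N-terminal region through which it meets partner proteins. They act in membrane repair, vesicle traffic, the control of inflammation and the assembly of plasminogen on the cell surface. ANXA2 and ANXA5 are abundant in many epithelial and tumor cells. In bulk RNA, fewer cells that express a gene and less RNA per cell cannot be told apart.

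The libraries held 16970486 to 18209213 counted reads. Counts scaled to these totals are given as CPM, and the smallest amount treated as detectable, 3 counts, came to 0.165 to 0.177 CPM. This floor covers counting error only. The defining hepatocyte genes ALB, AFP, APOB and TTR had 0 counts in all 9 libraries, and the 8 hepatocyte markers looked at summed to 0.227 to 2.14 CPM. The keratins KRT8 and KRT18 were abundant, at 22160 to 69315 counts, while EPCAM had at most 2 counts and CDH1 2 to 19. Of the 3 leukocyte markers, PTPRC and CD3E had 0 counts throughout, and CD68, a lysosomal protein that tumor cells can also express, had 862 to 1428 counts in MHCC97L, 1263 to 1517 in MHCC97L-Src and 2602 to 2608 in MHCC97L-Oxa. The endothelial markers PECAM1 and VWF had at most 39 counts, and of the fibroblast markers COL1A1 had 1022 to 1491, PDGFRB 181 to 690 and COL3A1 at most 9. The part of such cells in the annexin values was not tested. MHCC97L replicate 1 stood apart before any comparison: across genes, the deviation of its log2 CPM from the mean of all libraries had a Spearman correlation of -0.781 with GC content, against -0.255 to 0.699 in the other 8 libraries. The 0.699 belonged to MHCC97L-Src replicate 2, and MHCC97L-Src replicate 1 had 0.542. Within MHCC97L, library pairs correlated at 0.859 to 0.956 in log2 CPM, within MHCC97L-Src at 0.969 to 0.987, and within MHCC97L-Oxa at 0.984 to 0.99. Log2 fold changes that moved most without MHCC97L replicate 1 are therefore also given without it.

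ANXA8L1, the member with the largest fall that passed a test, has a near-identical copy, ANXA8, and its reads can be shared. On chromosome 10 of GRCh38, GENCODE release 29 places ANXA8L1 at 46375627 to 46391784 (+ strand) and ANXA8 at 47460162 to 47484158 (- strand). Their transcripts of 2174 bases differed at 13 positions, which is an identity of 99.4%. The coding sequences of 1095 bases differed at 5 positions, and counted from the A of the start codon these were G16T, T390C, G642A, C644G and C1053T, with the ANXA8L1 base first. The stretches around G16T, G642A and C644G are shown because they are among the few places where a read can be assigned to either copy. Coding bases 1 to 60 and 611 to 670 are given 5′ to 3′, and capitals mark the bases that differ.
ANXA8L1, coding bases 1 to 60: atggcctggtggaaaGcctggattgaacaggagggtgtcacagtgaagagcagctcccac
ANXA8, coding bases 1 to 60: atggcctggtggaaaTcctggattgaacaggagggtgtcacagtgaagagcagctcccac
ANXA8L1, coding bases 611 to 670: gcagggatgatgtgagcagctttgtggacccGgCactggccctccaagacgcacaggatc
ANXA8, coding bases 611 to 670: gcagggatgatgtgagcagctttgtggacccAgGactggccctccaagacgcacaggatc

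Of all stretches of 125 bases in the longest transcript of ANXA8L1, 63.8% also occurred in another gene, namely ANXA8 or AC244230.1. For ANXA2 the share was 5.38%, all of it in the pseudogene ANXA2P2, and for the other 8 members it was 0. The counts of ANXA8L1 on its own are therefore uncertain, while the sum of both copies is less so. The tables also listed 4 further symbols that start with ANXA. ANXA9 had 4 to 26 counts, ANXA13 had 0 or 1, and ANXA2R, which encodes a receptor for ANXA2 and no annexin, had 43 to 83, with ANXA8 described below.

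Levels between genes were compared on the FPKM scale, which divides by transcript length as well as by library size. ANXA2 had the highest mean level in each line, at 219 ± 77.3 FPKM in MHCC97L, 114 ± 8.82 in MHCC97L-Oxa and 73.0 ± 26.1 in MHCC97L-Src (SD, n = 3 throughout). ANXA5 and ANXA6 held the next places in each line. In MHCC97L, ANXA5 stood at 76.2 ± 17.9 FPKM, with no library below any of ANXA6 at 46.1 ± 12.4. In MHCC97L-Src, by contrast, the libraries of ANXA2, ANXA6 (49.7 ± 3.83 FPKM) and ANXA5 (43.4 ± 16.0 FPKM) overlapped from each neighbour to the next, so that their order was not resolved. ANXA11 followed in that line at 37.5 ± 3.06 FPKM, overlapping ANXA5. In MHCC97L the order from ANXA6 down through ANXA8L1, ANXA1, ANXA7 and ANXA11 was likewise unresolved, each overlapping the next. ANXA3, ANXA4 and ANXA10 were the 3 lowest in every line, at mean levels of 1.88 FPKM or less.

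ANXA2 alone made up 41.7% to 54.2% of the summed FPKM of the 10 members in MHCC97L, 38.5% to 40.6% in MHCC97L-Oxa and 24.8% to 35.7% in MHCC97L-Src. The share of ANXA11 ran the other way, from 2.6% to 6.52% in MHCC97L and 7.1% to 8.25% in MHCC97L-Oxa to 12.3% to 21.3% in MHCC97L-Src. Neither share overlapped between MHCC97L-Src and the other lines. The summed level of the family was 556, 436 and 354 FPKM in the 3 MHCC97L libraries, 304, 281 and 275 in MHCC97L-Oxa, and 233, 188 and 277 in MHCC97L-Src. Every resistant library thus lay below every MHCC97L library, and most of the sum in each library came from ANXA2, ANXA5 and ANXA6, which together held 67.8% to 78.6%.

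**Figure D1:**
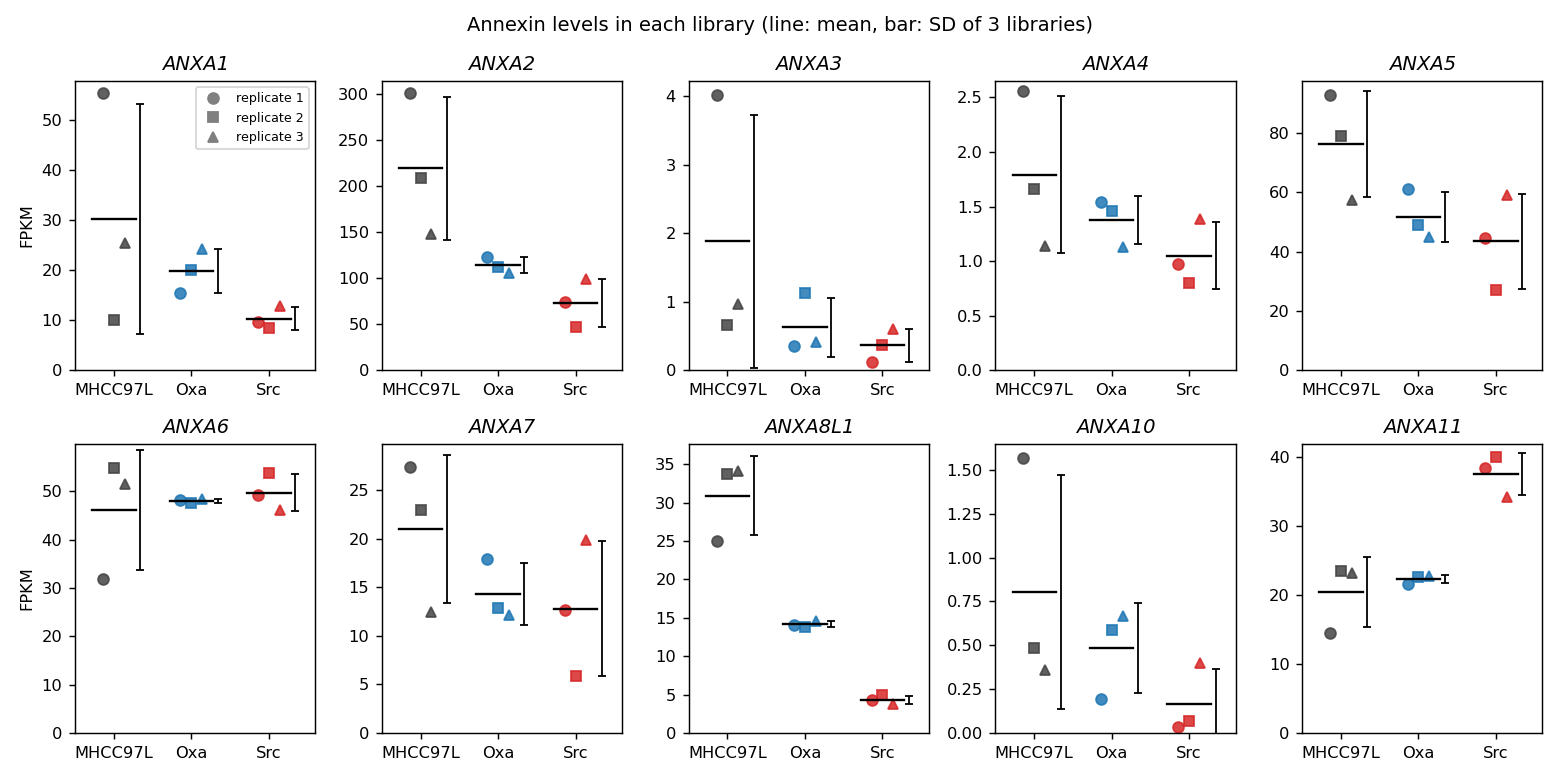
Level of each of the 10 annexins in FPKM (vertical axis, linear and different for each gene) in the 3 libraries of MHCC97L, MHCC97L-Oxa and MHCC97L-Src, with the mean as a line and the SD as a bar beside it, which is clipped at 0 for ANXA10. ANXA8L1 forms 3 separate groups, at 25.0 to 34.1, 13.8 to 14.6 and 3.81 to 4.88 FPKM, ANXA11 is high in MHCC97L-Src alone, and MHCC97L replicate 1 is the highest library for ANXA1, ANXA2, ANXA3, ANXA4, ANXA5, ANXA7 and ANXA10 and the lowest of MHCC97L for ANXA6, ANXA8L1 and ANXA11.

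The lines were compared by edgeR's quasi-likelihood test, and a gene was called at a Benjamini-Hochberg adjusted p under 0.05 over all genes tested. The 10 members all passed the filter on low counts in each comparison. In MHCC97L-Src against MHCC97L, 1 of 10 members was called, where 2.13% of all 12037 genes tested were. It was lower, as were 0.698% of all genes, and none was higher, beside 1.43% of all genes. In MHCC97L-Oxa against MHCC97L, 0 of 10 were called in either direction, where 0.953% of 12064 genes were, 0.182% lower and 0.771% higher. Between the resistant lines, 3 of 10 were called, where 4.64% of 11994 genes were. Of these, 2 were lower in MHCC97L-Src (2.52% of all genes) and 1 was higher (2.12% of all genes). Both comparisons with MHCC97L share its 3 libraries, so they are not independent of each other.

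**Figure D2:**
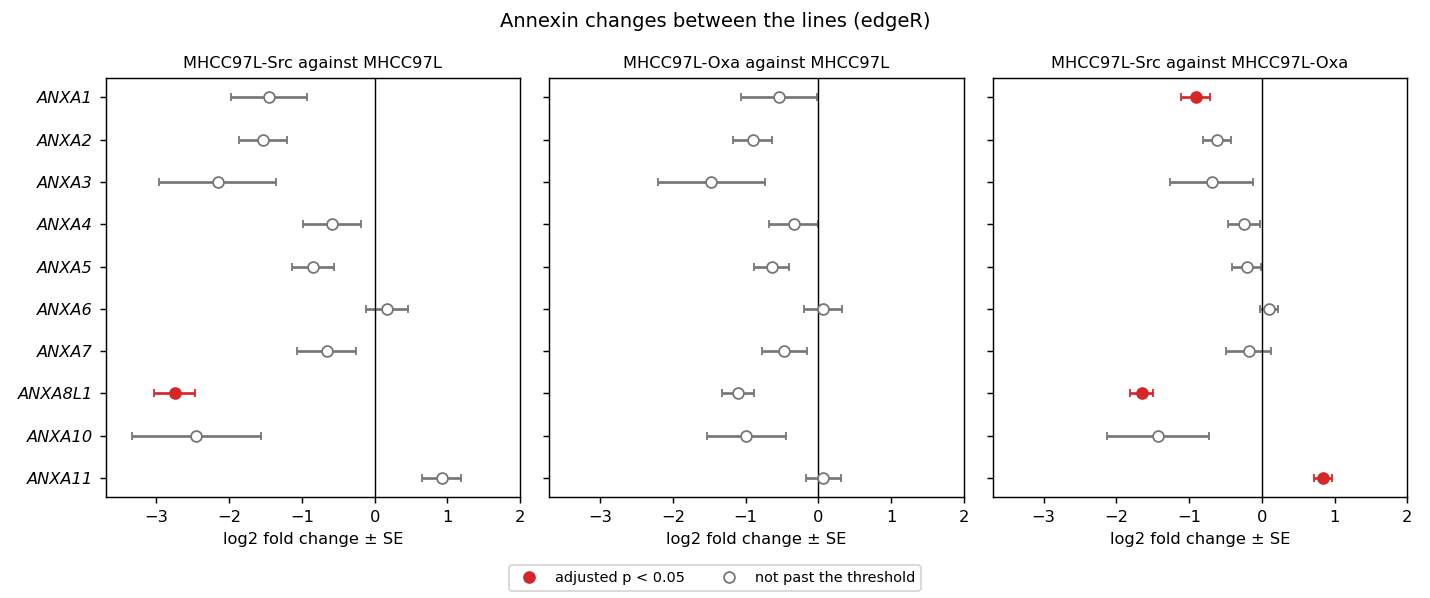
Log2 fold change with its standard error (horizontal axis) of each annexin in the 3 comparisons, from edgeR, with filled red points for an adjusted p under 0.05. ANXA8L1 at -2.75 is the sole filled point for MHCC97L-Src against MHCC97L, none is filled for MHCC97L-Oxa, and ANXA1 at -0.91, ANXA8L1 at -1.65 and ANXA11 at 0.84 are filled between the resistant lines.

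ANXA8L1 encodes a member of the annexin A8 group, first described as an anticoagulant protein of blood vessels. Its counts were 1783, 2320 and 2354 in MHCC97L, 1022, 988 and 1006 in MHCC97L-Oxa, and 295, 320 and 270 in MHCC97L-Src. The 3 lines did not overlap, with MHCC97L highest, MHCC97L-Oxa between and MHCC97L-Src lowest. In MHCC97L-Src it fell 6.74-fold against MHCC97L, from 121 ± 17.2 to 17.1 ± 1.75 CPM (log2 fold change -2.75, SE 0.28, edgeR adjusted p = 0.00598). This call held when any of the 6 libraries was left out, with adjusted p-values from 0.000135 to 0.0415. In MHCC97L-Oxa the level was 56.0 ± 0.758 CPM, a log2 fold change of -1.11 (SE 0.22) that missed the threshold at an edgeR adjusted p of 0.0649. Without MHCC97L replicate 1 that comparison gave -1.17 with an adjusted p of 0.000734, without replicate 2 it was also called, and the correction for GC content and length gave -1.37 with 0.00155. These settings called 18.5%, 22.1% and 12.9% of all genes. Only 2 of 6 fits that left out a library called it, and edgeR adjusted p-values reached 0.423. It was not called with the replicate block (edgeR adjusted p = 0.126). The difference between the resistant lines was tested directly and was -1.65 (SE 0.16, edgeR adjusted p = 0.000348), lower in 3 of 3 MHCC97L-Src libraries.

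ANXA8, the copy, was counted at 1046, 1175 and 1255 in MHCC97L, 602, 493 and 535 in MHCC97L-Oxa, and 192, 158 and 160 in MHCC97L-Src. It showed the same order of lines without overlap, and reads may be shared between the copies. Its log2 fold change in MHCC97L-Src against MHCC97L was -2.66 (SE 0.29, edgeR adjusted p = 0.00694). ANXA8L1 held 1.54 to 2.03 times the counts of ANXA8 in every library, and the range of this ratio overlapped among the lines. The copies lay further apart in mean FPKM, at 30.9 and 6.44 in MHCC97L, 14.2 and 3.2 in MHCC97L-Oxa, and 4.31 and 0.972 in MHCC97L-Src. For ANXA8 the ratio of FPKM to CPM varied 1.74-fold over the libraries. Summed, an alternative chosen after seeing the data, the copies reached 186 ± 22.4 CPM in MHCC97L, 86.2 ± 3.31 in MHCC97L-Oxa and 26.9 ± 2.12 in MHCC97L-Src. The summed log2 fold change was -2.72 (SE 0.26, edgeR adjusted p = 0.00391) in MHCC97L-Src and -1.10 (SE 0.21, adjusted p = 0.0575) in MHCC97L-Oxa, close to the values of ANXA8L1 alone.

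**Figure D3:**
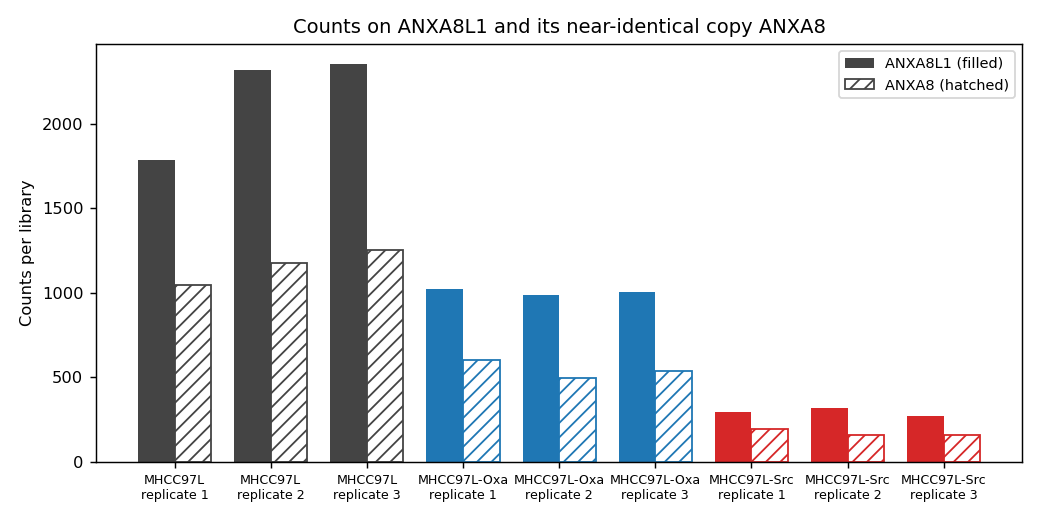
Counts per library (vertical axis) on ANXA8L1 (filled bars) and on its copy ANXA8 (hatched bars) in the 9 libraries, colored by line. Both fall together from MHCC97L through MHCC97L-Oxa to MHCC97L-Src, and the counts of ANXA8L1 stay 1.54 to 2.03 times those of ANXA8.

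The genes whose log2 CPM followed ANXA8L1 most closely over the 9 libraries, among 11567 genes with a mean of at least 1 CPM, were ANXA8 (Pearson r 0.994), SMAD6 (0.99), an inhibitor of bone morphogenetic protein signaling, and ID3 (0.986), an inhibitor of DNA binding by helix-loop-helix factors. The 9 points fall into 3 lines, so these correlations describe the order of the lines. SMAD6 had 875 to 1161 counts in MHCC97L, 593 to 607 in MHCC97L-Oxa and 228 to 285 in MHCC97L-Src.

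ANXA11 has a long N-terminal region that binds the calcium sensors S100A6 and PDCD6, and it links RNA granules to lysosomes. It was counted at 2666, 4106 and 4041 in MHCC97L, 3779, 3896 and 3794 in MHCC97L-Oxa, and 6456, 6647 and 5812 in MHCC97L-Src. It was highest in all 3 MHCC97L-Src libraries, which overlapped neither of the other lines. Between the resistant lines ANXA11 was 1.79-fold higher in MHCC97L-Src, at 365 ± 31.3 against 213 ± 4.97 CPM (log2 fold change 0.84, SE 0.12, edgeR adjusted p = 0.00395). This call held when any library was left out, with adjusted p-values from 0.000134 to 0.0407, but not with all 9 libraries in a single fit, which gave 0.187. Against MHCC97L the difference was 0.92 (SE 0.27) with an edgeR adjusted p of 0.104. Without MHCC97L replicate 1 it was 0.74 with an adjusted p of 0.0430, and after the GC and length correction 0.91 with 0.0450. In MHCC97L-Oxa the log2 fold change against MHCC97L was 0.07 (SE 0.24).

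ANXA1 is an anti-inflammatory protein induced by glucocorticoids, whose N-terminal peptide binds formyl peptide receptors. It was counted at 2467, 420 and 1091 in MHCC97L, 689, 856 and 1100 in MHCC97L-Oxa, and 428, 351 and 536 in MHCC97L-Src. MHCC97L overlapped both other lines, while the resistant lines did not overlap each other. ANXA1 was 1.88-fold lower in MHCC97L-Src than in MHCC97L-Oxa, at 25.3 ± 4.93 against 49.2 ± 12.1 CPM (log2 fold change -0.91, SE 0.20, edgeR adjusted p = 0.0296). The call held in 3 of 6 fits that left out a library and was lost without MHCC97L-Src replicate 1, MHCC97L-Oxa replicate 2 or MHCC97L-Oxa replicate 3, with adjusted p-values of up to 0.144. It was also lost with all 9 libraries in a single fit (edgeR adjusted p = 0.846), with limma on log2(FPKM + 1) (0.0560) and log2(FPKM + 0.1) (0.0536). The GC and length correction combined with a block for replicate number lost it too (edgeR adjusted p = 0.0536). Against MHCC97L the values were -1.45 (SE 0.52, edgeR adjusted p = 0.126) in MHCC97L-Src and -0.54 (SE 0.52) in MHCC97L-Oxa. They depended on the library left out: without MHCC97L replicate 1, the library with 2467 counts, they were -0.67 and 0.29. Without MHCC97L replicate 2 the value in MHCC97L-Src was -1.8 and was called (edgeR adjusted p = 0.00509), where 27.8% of all genes were.

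ANXA2 forms a complex with S100A10 at the plasma membrane and there binds plasminogen and its tissue activator. Its counts were 39225, 26463 and 18796 in MHCC97L, 16300, 14462 and 13928 in MHCC97L-Oxa, and 9134, 5771 and 12504 in MHCC97L-Src. No library of a line overlapped with those of another, and MHCC97L was highest. The log2 fold change in MHCC97L-Src against MHCC97L was -1.53 (SE 0.33), a mean of 526 ± 186 against 1590 ± 594 CPM, and it missed the threshold at an edgeR adjusted p of 0.0570. It was called without MHCC97L replicate 1 (-1.24, adjusted p = 0.0310) and without replicate 2, and not after the GC and length correction (-0.91, adjusted p = 0.0665). In MHCC97L-Oxa the value was -0.90 (SE 0.27, edgeR adjusted p = 0.167), and -0.56 without MHCC97L replicate 1. With the resistant lines compared, the value was -0.62 (SE 0.19, edgeR adjusted p = 0.105). This comparison was called after the GC and length correction (-0.49, edgeR adjusted p = 0.00841) and by DESeq2's Wald test (adjusted p = 0.0340).

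ANXA5 binds phosphatidylserine with high affinity and is used as a stain for dying cells. It was counted at 9345, 7885 and 5414 in MHCC97L, 5763, 4486 and 4211 in MHCC97L-Oxa, and 4087, 2447 and 5222 in MHCC97L-Src. All 3 MHCC97L-Src libraries lay below those of MHCC97L, by a narrow margin, and MHCC97L-Oxa overlapped both. The log2 fold change against MHCC97L was -0.85 (SE 0.29, edgeR adjusted p = 0.119) in MHCC97L-Src and -0.64 (SE 0.24, adjusted p = 0.206) in MHCC97L-Oxa, and -0.69 and -0.43 without MHCC97L replicate 1.

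ANXA6 carries a duplicated annexin core and acts in endosomal traffic and cholesterol distribution. Its counts were 3063, 5272 and 4972 in MHCC97L, 4786, 4546 and 4704 in MHCC97L-Oxa, and 4574, 4981 and 4348 in MHCC97L-Src. Apart from the low MHCC97L replicate 1, all libraries lay between 4348 and 5272. The log2 fold change was 0.17 (SE 0.29) in MHCC97L-Src and 0.06 (SE 0.26) in MHCC97L-Oxa, and both turned negative, to -0.03 and -0.09, without that library.

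ANXA7, also named synexin, was found as a protein that fuses secretory granules, and like ANXA11 it binds PDCD6. It was counted at 2371, 1905 and 1076 in MHCC97L, 1624, 1138 and 1071 in MHCC97L-Oxa, and 1064, 505 and 1644 in MHCC97L-Src. All 3 lines overlapped. Within MHCC97L-Src alone the CPM of ANXA7 differed 3.14-fold between the lowest and the highest library, beside a 1.58-fold difference between that line and MHCC97L (log2 fold change -0.66, SE 0.41, edgeR adjusted p = 0.295, and -0.42 without MHCC97L replicate 1).

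ANXA4, ANXA3 and ANXA10 were the low members. ANXA4, a protein of epithelial membranes, was counted at 565, 364 and 261 in MHCC97L, 339, 319 and 273 in MHCC97L-Oxa, and 234, 169 and 334 in MHCC97L-Src. Its log2 fold change of -0.59 (SE 0.40) in MHCC97L-Src was -0.27 without MHCC97L replicate 1 and became 0.33 after the GC and length correction, so no direction can be given. ANXA3 was counted at 150, 25 and 34 in MHCC97L, 17, 41 and 15 in MHCC97L-Oxa, and 5, 13 and 24 in MHCC97L-Src. Its highest value was again MHCC97L replicate 1, and its log2 fold change of -2.16 (SE 0.80, edgeR adjusted p = 0.130) in MHCC97L-Src was -0.97 without that library. ANXA10, best known from the stomach, was counted at 68, 26 and 18 in MHCC97L, 14, 20 and 21 in MHCC97L-Oxa, and 1, 2 and 16 in MHCC97L-Src. Replicates 1 and 2 of MHCC97L-Src were under the floor of 3 counts while replicate 3 was near the other lines, and the log2 fold change of -2.45 (SE 0.89, edgeR adjusted p = 0.128) ran from -4.32 without replicate 3 of MHCC97L-Src to -1.72 without replicate 1 of MHCC97L.

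Over the 10 members the median log2 fold change was -1.15 in MHCC97L-Src against MHCC97L, with 8 below 0 and 2 above, beside -0.16 over all genes tested. In MHCC97L-Oxa it was -0.59, also with 8 below 0, beside -0.19 over all genes. Without MHCC97L replicate 1 these medians were -0.68 beside -0.04 over all genes and -0.20 beside 0.00. At an unadjusted p under 0.05, edgeR gave 7 members in MHCC97L-Src, where 29.5% of all genes passed, and 3 in MHCC97L-Oxa (ANXA2, ANXA5 and ANXA8L1), where 22.4% passed. DESeq2's Wald test called 3 members in MHCC97L-Src, ANXA2, ANXA8L1 and ANXA11, where it called 17.6% of all genes. It called 1 member in MHCC97L-Oxa, ANXA8L1, and 7.40% of all genes, and between the resistant lines it called ANXA1, ANXA2, ANXA8L1 and ANXA11, and 7.0% of all genes. With the threshold of an unadjusted p under 0.05 and a log2 fold change beyond 1 in either direction, edgeR gave 5 members in MHCC97L-Src (24.6% of all genes), 1 in MHCC97L-Oxa (16.2% of all genes) and 1 between the resistant lines (4.01% of all genes). Libraries did not overlap and were lower in MHCC97L-Src for 5 members, ANXA2, ANXA3, ANXA5, ANXA8L1 and ANXA10, where 12.2% of all genes met this, and higher for 1, ANXA11, where 18.3% did. In MHCC97L-Oxa they were lower without overlap for 2 members, ANXA2 and ANXA8L1, beside 10.5% of all genes.

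GC content moved with these values. In their longest GENCODE transcript, 7 of the 10 members lay below the median GC content of the genes tested, 49.2%, and the members ranged from 38.9% in ANXA4 to 56.0% in ANXA6. Those 7, ANXA1, ANXA2, ANXA3, ANXA4, ANXA5, ANXA7 and ANXA10, were the members highest in MHCC97L replicate 1, and GC content with length fitted 67.6% of the variance of that library's deviation across genes in the comparison with MHCC97L-Src. For MHCC97L-Src replicate 2 they fitted 50.9% in that comparison and 36% in the comparison with MHCC97L-Oxa, the largest share there. That library was the lowest of all for ANXA1, ANXA2, ANXA4, ANXA5 and ANXA7. After correction for GC content and length, the median of the members in MHCC97L-Src was -0.43 beside -0.05 over all genes, and in MHCC97L-Oxa it was -0.26 beside -0.08. The corrected fits called 2 members in MHCC97L-Src, ANXA8L1 and ANXA11, where 10.6% of all genes were called, and ANXA8L1 alone in MHCC97L-Oxa, where 12.9% were. They called 4 members in MHCC97L-Src against MHCC97L-Oxa, ANXA1, ANXA2, ANXA8L1 and ANXA11, where 9.62% were. ANXA8L1, with a GC content of 54.7%, moved away from 0 under the correction, to -3.09 in MHCC97L-Src, and ANXA11, at 52.3%, was almost the same before and after.

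**Figure D4:**
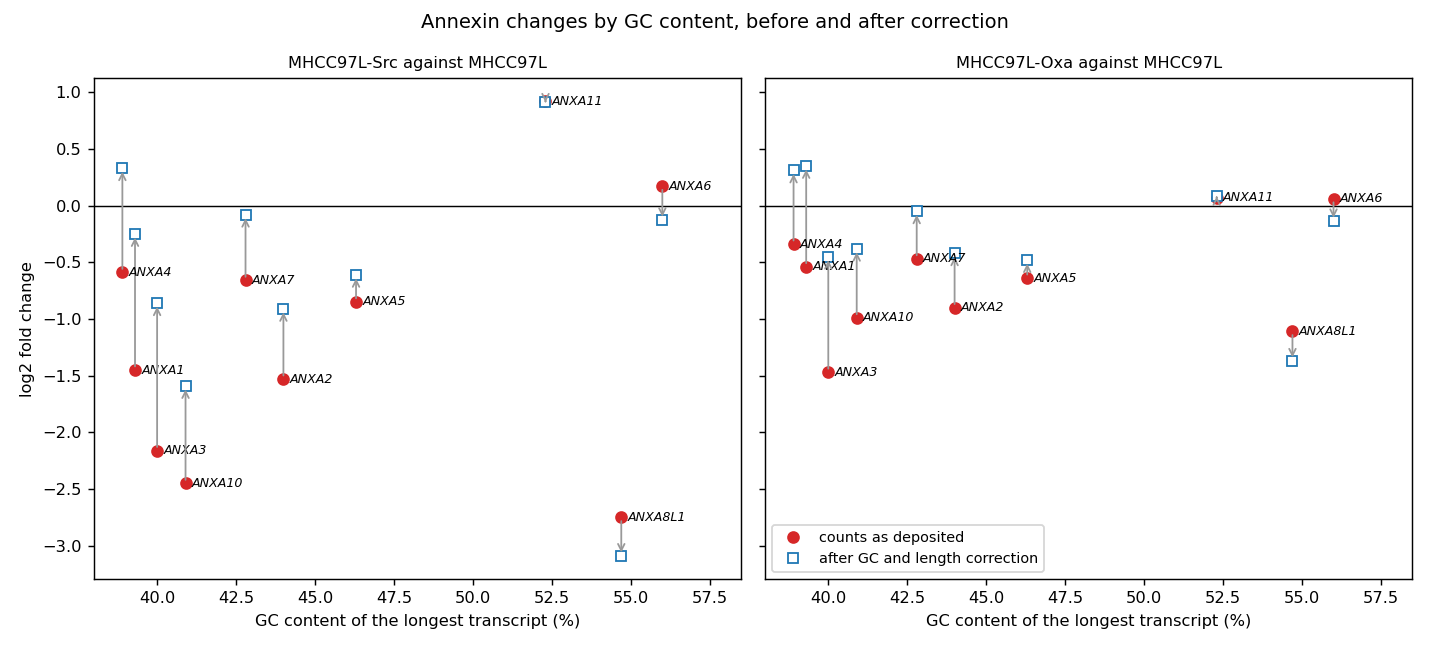
Log2 fold change of each annexin against MHCC97L (vertical axis) by the GC content of its longest transcript in percent (horizontal axis), for MHCC97L-Src and MHCC97L-Oxa, from the deposited counts (red) and after correction for GC content and length (open blue), joined by arrows. The 7 members below the median GC content move up, ANXA1 from -1.45 to -0.25 in MHCC97L-Src, while ANXA8L1 moves from -2.75 to -3.09.

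With MHCC97L-Src and MHCC97L-Oxa compared directly, the median over the members was -0.43 beside -0.02 over all genes. At an unadjusted p under 0.05, edgeR gave 4 members, the 3 called and ANXA2, where 19.5% of all genes passed. Libraries did not overlap for 3 members that were lower in MHCC97L-Src, ANXA1, ANXA2 and ANXA8L1 (14.4% of all genes), and for 1 that was higher, ANXA11 (13.2% of all genes). Without MHCC97L-Src replicate 3 the log2 fold change of ANXA10 went from -1.43 to -3.34, which was called at an edgeR adjusted p of 0.00999, where 13.3% of all genes were called. That of ANXA2 went from -0.62 to -0.84 and was called at 0.00161, and ANXA2 was also called without MHCC97L-Src replicate 2.

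Apart from the symbol, the members shared one annotation. The tables carry gene ontology terms for 8 of the 10, without ANXA1 and ANXA2, and all 8 had the term for calcium-dependent phospholipid binding, which 44 genes in the table hold. They lie on 6 chromosomes: ANXA3, ANXA5 and ANXA10 on chromosome 4, ANXA7, ANXA8L1 and ANXA11 on chromosome 10, and the others on chromosomes 2, 5, 9 and 15.

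Promoter windows of 300 bases, from 250 before to 50 after the transcription start (RefSeq, GRCh38.p14), were found for 10 members, 14 windows in all. The letters TATAAA occurred on either strand in 4 of the 14 windows, 1 each of ANXA1, ANXA2, ANXA10 and ANXA11, beside 11.5% of 35116 windows of the same length. TGANTCA, the letters of AP-1 sites, occurred in 1 window, of ANXA2 (7.71% of all windows), and GGGCGG in 8 windows of 7 members (45.0%). A match in letters does not show that a factor binds. The windows of ANXA1 and ANXA8L1, the members lower in MHCC97L-Src than in MHCC97L-Oxa by the test, are shown 5′ to 3′ because they differ in these letters and in base composition, with GC contents of 37.7% and 63.0%. Capitals mark TATAAA. The ANXA1 window is chr9:73151615-73151914 on the + strand and the ANXA8L1 window chr10:46375526-46375825 on the + strand, and the latter has no TATAAA and no TGANTCA.
ANXA1: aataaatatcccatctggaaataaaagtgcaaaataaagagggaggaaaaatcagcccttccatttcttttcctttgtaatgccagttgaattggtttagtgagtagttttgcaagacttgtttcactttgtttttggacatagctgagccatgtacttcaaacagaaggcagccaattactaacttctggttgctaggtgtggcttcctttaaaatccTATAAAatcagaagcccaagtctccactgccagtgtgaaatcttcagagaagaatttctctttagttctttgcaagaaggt
ANXA8L1: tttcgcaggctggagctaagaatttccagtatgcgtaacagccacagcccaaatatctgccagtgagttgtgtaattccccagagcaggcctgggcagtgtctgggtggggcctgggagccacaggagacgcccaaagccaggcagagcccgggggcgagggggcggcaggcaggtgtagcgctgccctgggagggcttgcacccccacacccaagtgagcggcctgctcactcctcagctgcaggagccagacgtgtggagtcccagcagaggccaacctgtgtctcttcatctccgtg

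Genes that work with annexins were read from the same fits, as a list of 27: S100 proteins, other annexin-binding proteins, formyl peptide receptors, genes of plasminogen activation and genes of plasma membrane repair. Of these, 22 passed the filter on low counts in each comparison. Against MHCC97L, edgeR called 0 of them in either resistant line, beside 2.13% of all genes in MHCC97L-Src and 0.953% in MHCC97L-Oxa. At an unadjusted p under 0.05 edgeR gave 3 in each, where 29.5% and 22.4% of all genes passed, and DESeq2's Wald test called 2 in each, where it called 17.6% and 7.40%. Between the resistant lines, where 4.64% of all genes were called, 1 was lower in MHCC97L-Src, PLAT, and 1 was higher, DYSF. The receptors for ANXA1 peptides were at or near 0, with 0 to 5 counts for FPR1 and 0 for FPR2 and FPR3, and plasminogen itself (PLG) had 0 to 5.

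PLAT, the tissue plasminogen activator that binds the ANXA2 complex, was lower in MHCC97L-Src than in MHCC97L-Oxa by a log2 fold change of -0.64 (SE 0.15, edgeR adjusted p = 0.0398), with 427, 328 and 469 against 630, 743 and 677 counts. That call held in 2 of 6 fits that left out a library, those without MHCC97L-Src replicate 2 or 3, and adjusted p-values reached 0.233. In MHCC97L it had 283, 407 and 282 counts, below all libraries of MHCC97L-Oxa. The log2 fold change of PLAT in MHCC97L-Oxa against MHCC97L was 1.07 (SE 0.29, edgeR adjusted p = 0.15). PLAUR, a gene of plasminogen activation named after its values were seen, gave 0.99 (SE 0.24, edgeR adjusted p = 0.106). DESeq2's Wald test called both there, at 1.13 and 1.06 (adjusted p = 0.0112 for each), and 7.40% of all genes. PLAUR was also called there after the GC and length correction, at 0.67 (edgeR adjusted p = 0.00888).

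DYSF encodes dysferlin, a calcium sensor of membrane repair that binds ANXA1 and ANXA2. Its counts were 116, 179 and 189 in MHCC97L, 108, 83 and 106 in MHCC97L-Oxa, and 300, 254 and 269 in MHCC97L-Src. MHCC97L-Src was highest without overlap. Against MHCC97L-Oxa the log2 fold change was 1.58 (SE 0.20, edgeR adjusted p = 0.00183), and against MHCC97L it was 0.87 (SE 0.39, adjusted p = 0.178). The calls of DYSF and PLAT against MHCC97L-Oxa were lost with all 9 libraries in a single fit. That of PLAT was also lost with the replicate block (edgeR adjusted p = 0.101) and with this block and the GC and length correction (0.115). Limma on log2(FPKM + 1) (adjusted p = 0.0557) and log2(FPKM + 0.1) (0.0515) lost it too, while DYSF was called in each of these. In edgeR's fits of each pair's 6 libraries, without correction or block, the other 9 tested genes of membrane repair were not called. With all libraries kept, 3 of them, named here after their values were seen, were called under other settings. CAPNS1, the small calpain subunit, was called after the GC and length correction, at -0.48 in MHCC97L-Src (edgeR adjusted p = 0.0263) and -0.55 in MHCC97L-Oxa (adjusted p = 0.00866). Before the correction these values were 0.01 (edgeR adjusted p = 0.98) and -0.22 (adjusted p = 0.597). With the replicate block added to the correction, the call was lost in MHCC97L-Src (edgeR adjusted p = 0.159) and held in MHCC97L-Oxa (0.0453). MYOF, a relative of dysferlin, and PDCD6IP, which links to the ESCRT machinery, were called in MHCC97L-Src by DESeq2's Wald test at -1.45 (adjusted p = 0.0448) and -1.88 (adjusted p = 0.0204). That test called 17.6% of all genes. With the replicate block edgeR also called both there, at -1.26 (adjusted p = 0.0324) and -1.48 (adjusted p = 0.0266), and 8.21% of all genes. PDCD6IP was called too with all 9 libraries in a single fit (edgeR adjusted p = 0.0464), where 16.0% of all genes were. MYOF and PDCD6IP overlapped between the 2 lines, and MHCC97L replicate 1 was highest, with 4976 and 2963 counts. By edgeR their values went from -1.58 and -2.0 to -0.65 and -0.86 without that library. After the GC and length correction they were -0.84 and -0.45, and neither was called there.

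With all libraries kept and no correction, none of the S100 partners was called. With a library left out, edgeR called S100A10 and S100A11 between the resistant lines in 1 of 6 fits each (lowest adjusted p = 0.00304 and 0.0165). S100A10, the partner of ANXA2, had 5018 to 7679 counts in MHCC97L, 7944 to 8724 in MHCC97L-Oxa and 4963 to 6560 in MHCC97L-Src, and its log2 fold change in MHCC97L-Src against MHCC97L was -0.08 (SE 0.28). Against MHCC97L-Oxa the log2 fold change of S100A10 in MHCC97L-Src was -0.41 (SE 0.15, edgeR adjusted p = 0.165). It was lower there without overlap, as were 14.4% of all genes. After the GC and length correction S100A10 was called, at -0.55 (edgeR adjusted p = 0.0368) against MHCC97L and at -0.52 (adjusted p = 0.00518) against MHCC97L-Oxa. S100A11, the partner of ANXA1, had 11029 to 15778 counts in MHCC97L, 15555 to 17186 in MHCC97L-Oxa and 18051 to 20854 in MHCC97L-Src, a log2 fold change of 0.58 (SE 0.27, edgeR adjusted p = 0.182) in MHCC97L-Src. S100A6, the partner of ANXA11, gave 0.42 (SE 0.32) there and 0.09 (SE 0.15) between the resistant lines, where ANXA11 was higher. Against MHCC97L-Oxa the log2 fold change of S100A11 was 0.38 (SE 0.13, edgeR adjusted p = 0.129). After the GC and length correction it was called there, at 0.28 (edgeR adjusted p = 0.0350), and was 0.20 against MHCC97L.

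**Figure D5:**
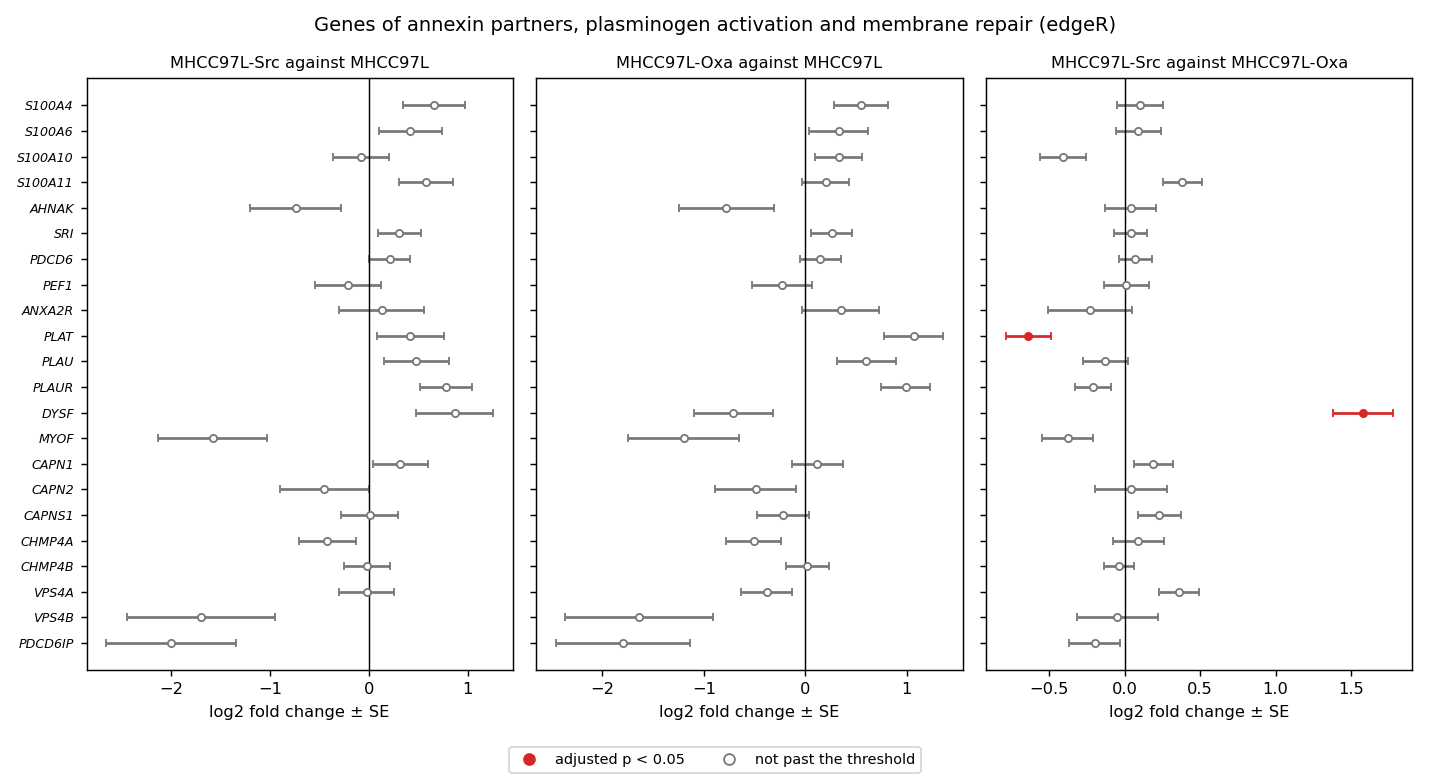
Log2 fold change with its standard error (horizontal axis, scaled separately in each panel) of the 22 tested genes of annexin partners, plasminogen activation and membrane repair in the 3 comparisons, from edgeR, with filled red points for an adjusted p under 0.05. PLAT at -0.64 and DYSF at 1.58 are filled between the resistant lines, and none is filled in either comparison with MHCC97L.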

How the data were processed

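Poly(A)-selected RNA of 3 lines was sequenced from stranded libraries, 3 per line. The authors deposited raw counts of reads per gene, without normalization, and FPKM values for the same genes and libraries. The submitters' processing notes name Trimmomatic 0.36, HISAT2 2.2.1.0 and GRCh38 p12, and the counting program and annotation are not given in the sources used here. FPKM did not follow CPM by a fixed factor in every library: the ratio varied at most 1.15-fold for 8 members, 1.37-fold for ANXA3 and 2.27-fold for ANXA10.

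Libraries were grouped by their labels, which name the oxaliplatin-resistant line in a short form. The members, lists and tests were chosen with earlier results of these data known. Each pair of lines was fitted in edgeR 4.0.16 (R 4.3.3) on the counts of its 6 libraries, with filterByExpr at a minimum count of 10, TMM normalization, glmQLFTest and Benjamini-Hochberg adjustment over all genes tested. The SE of a log2 fold change is its size divided by the square root of the F statistic. Log2 CPM used a prior count of 2. GC content and length came from the longest GENCODE 29 transcript, found for 19343 of 20030 genes, and the correction entered edgeR as offsets from splines with 5 degrees of freedom each.

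All 10 members are named. Related genes are named if called in any comparison, together with S100A10, S100A11 and S100A6, and the genes most like ANXA8L1 are the 3 with the highest correlation. CAPNS1, MYOF, PDCD6IP and PLAUR were named after their values under other settings were seen. FPR1, FPR2, FPR3 and PLG, and the 4 further ANXA symbols, are given by counts only. Alternatives were DESeq2 1.42.0, limma 3.58.1 on log2(FPKM + 1) and log2(FPKM + 0.1), other normalizations, filters and thresholds, all 9 libraries in a single fit, a replicate block, the GC and length correction, and each library left out. The script for the fits was tested on simulated counts. Protein sequences were not analysed here, and 1 gene of the related list is not reported here. Python 3.11.15, pandas 2.3.3 and matplotlib 3.10.9 were used.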

Additional observations from a re-analysis of the deposited data

Results flagged for a closer look

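For 3 annexins the change from MHCC97L differed between the resistant lines, by edgeR's test of MHCC97L-Src against MHCC97L-Oxa with adjustment over all genes. The difference was -0.91 on the log2 scale for ANXA1, lower in 3 of 3 MHCC97L-Src libraries. It was -1.65 for ANXA8L1, also lower in 3 of 3. For ANXA11 it was 0.84, higher in 3 of 3. The correction for GC content and length gave -0.60, -1.72 and 0.83, in the same order. With all 9 libraries in a single fit the call of ANXA8L1 held, while ANXA1 (edgeR adjusted p = 0.846) and ANXA11 (0.187) were not called. ANXA1 was also lost in 3 of 6 fits that left out a library, with limma, and with the GC and length correction combined with the block.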

How the results depend on the processing

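Of 566 values of single annexins under alternatives, 497 kept their direction and side of the threshold, 10 dropped below it, 37 passed it and 22 changed sign, none of the last among called values. Where a call or sign changed, the cause was not tested. All 20 ratios of levels between lines moved by less than the spread between libraries with CPM in place of FPKM. Depth limits ANXA3 and ANXA10, with 1 to 150 counts. A library left out leaves a line with 2.

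The count of annexins called in MHCC97L-Src against MHCC97L was 1. It was 3 with DESeq2's Wald test (17.6% of all genes), 2 without a filter (4.63%), 4 with all 9 libraries in a single fit (16.0%), 2 with the GC and length correction (10.6%), 5 at an unadjusted p with an absolute log2 fold change over 1 (24.6%), and 1 to 6 with a library left out, the 6 without MHCC97L replicate 2 (27.8%). ANXA8L1 was called in each of these. In MHCC97L-Oxa it was 0, and 1, always ANXA8L1, with total counts, DESeq2's Wald test, all 9 libraries, the GC and length correction with or without the block, limma at either pseudocount and the unadjusted threshold, and 0 to 1 with a library left out, the 1 being without MHCC97L replicate 1 or 2. In that comparison these settings called 1.76% to 16.2% of all genes with all libraries kept. The fits without MHCC97L replicate 1 or 2 called 18.5% and 22.1%. Between the resistant lines it was 3, and 4 with DESeq2's Wald test (7.0% of all genes) or the GC and length correction (9.62%). It was 2 with limma at either pseudocount (4.06% and 3.95%), 1 with all 9 libraries (0.703%) and 1 at the unadjusted threshold (4.01%). With a library left out it was 2 to 5, the 5 without MHCC97L-Src replicate 3 (13.3%).

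The related genes called in MHCC97L-Src numbered 0. They numbered 2 with DESeq2's Wald test (17.6% of all genes), all 9 libraries (16.0%), the GC and length correction (10.6%) or the unadjusted threshold (24.6%). With a library left out they numbered 0 to 5, the 5 without MHCC97L replicate 2 (27.8% of all genes). In MHCC97L-Oxa they numbered 0, and 2 with DESeq2's Wald test (7.40% of all genes), all 9 libraries (4.05%), the GC and length correction (12.9%) or the unadjusted threshold (16.2%). They numbered 1 with that correction and the block (4.97%) and 1 with limma on log2(FPKM + 0.1) (2.12%). With a library left out they numbered 0 to 7, the 7 without MHCC97L replicate 1 (18.5% of all genes) and 6 without replicate 2 (22.1%). Between the resistant lines they numbered 2, and 0 with all 9 libraries (0.703% of all genes) and 5 with the GC and length correction (9.62%). They numbered 1 with limma at either pseudocount (4.06% and 3.95%) or the unadjusted threshold (4.01%). With a library left out they numbered 1 to 4, the 4 without MHCC97L-Src replicate 2 (8.51%) or 3 (13.3%). Over all genes the calls, 256, 115 and 556 in the order of the comparisons above, ran from 22 to 3419, 2 to 2705 and 167 to 1617 with a library left out, and from 162 to 2966, 92 to 1951 and 86 to 1154 under the other settings.

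No pairing by replicate number was seen in the deviations of the libraries: same-numbered libraries correlated in their deviations at 0.16, 0.211 and -0.631 between MHCC97L-Src and MHCC97L, -0.208, -0.129 and 0.417 between MHCC97L-Oxa and MHCC97L, and 0.0286, -0.075 and -0.271 between the resistant lines, and 2, 2 and 1 of 6 libraries correlated best with their own number. Deviations of single libraries that follow GC content could hide a pairing, so these values do not settle whether one exists. With the replicate block, 3, 0 and 4 annexins and 2, 0 and 1 related genes were called, and 988, 92 and 406 of all genes.

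Signs changed with the GC and length correction for ANXA4 (0.33 in MHCC97L-Src, 0.31 in MHCC97L-Oxa, 0.02 between the resistant lines), ANXA6 (-0.13 and -0.14), ANXA1 (0.35 in MHCC97L-Oxa), S100A6 (-0.06, -0.00 and -0.08), S100A10 (-0.03 in MHCC97L-Oxa) and S100A11 (-0.12 in MHCC97L-Oxa). Of the 22 related genes tested, 4, 6 and 5 changed sign in the order of the comparisons above. With the block added to it, these were 0.55, 0.51 and 0.03 for ANXA4, -0.13 and -0.14 for ANXA6, 0.36 for ANXA1, -0.06, -0.00 and -0.08 for S100A6, -0.03 for S100A10 and -0.12 for S100A11, and ANXA7 reached 0.02 in MHCC97L-Src and 0.06 in MHCC97L-Oxa. S100A10 reached 0.02 in MHCC97L-Src with DESeq2's size factors and with its Wald test. CAPNS1 changed sign in MHCC97L-Src with the GC and length correction, at -0.48 with or without the block, and with total counts, at -0.05. PDCD6IP did so between the resistant lines with that correction, at 0.1 with or without the block. With a library left out, values that crossed 0 in MHCC97L-Src ran from -0.03 to 0.41 for ANXA6, -0.23 to 0.07 for S100A10 and -0.18 to 0.18 for CAPNS1. In MHCC97L-Oxa they ran from -0.87 to 0.29 for ANXA1, -0.56 to 0.03 for ANXA4, -0.09 to 0.33 for ANXA6 and -0.05 to 0.30 for ANXA11. Between the resistant lines they ran from -0.03 to 0.21 for ANXA6, -0.56 to 0.11 for ANXA7 and -0.11 to 0.24 for S100A6.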
